A study of Mus musculus with 6 samples.

Results

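The genes described here are 46 mouse genes, chosen by symbol from a list of type I interferon response genes, with RIG-I taken under either of its symbols. They are interferon-stimulated effector genes and the receptor genes Ifnar1 and Ifnar2, and are together called the interferon-stimulated genes below. All 46 were found among the 55401 genes of the deposited table. Counts from RNA-seq were compared between 3 NETs-treated and 3 control libraries. NETs are neutrophil extracellular traps, webs of chromatin and granule proteins that neutrophils release. The NETs-treated cells and the control cells, called normal in the labels, were both wild type (WT) in genotype, and the cell type field reads BMDM (bone marrow-derived macrophages) for all 6. The sample titles carry the name BV2, which is that of an immortalised mouse microglial line, and the labels do not settle which cells were used. The sources used here do not give the dose and duration of the NETs treatment, the strain or the age of any donor mice. Nothing in the labels says that replicates came from separate cultures or animals, so the p-values measure the spread between these libraries, which may be technical.

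Type I interferons bind a receptor made of IFNAR1 and IFNAR2, whose kinases JAK1 and TYK2 phosphorylate STAT proteins. These join IRF9 to form the complex ISGF3, which binds the interferon-stimulated response element (ISRE) in the promoters of effector genes. Macrophages hold many of these genes at a low level without infection, through weak constant interferon signalling, and raise them strongly when interferon is made. The products detect foreign nucleic acids, degrade RNA, block translation, trap virus particles or attack the vacuoles of microbes.

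Total counts were 43686531, 41399865 and 39994613 in the NETs-treated libraries and 41830940, 42067235 and 44274445 in the control libraries. Values below are CPM (a gene's share of the reads of its library, scaled to a fixed total) scaled by TMM, a correction for library composition. On the log2 CPM scale the SD of the median gene was 0.179 among NETs-treated and 0.11 among control libraries. Macrophage markers were present, with none of 12 at 0 in all libraries and a summed level of 10603 to 10975 CPM in NETs-treated and 6135 to 6329 CPM in control libraries. The sum was higher through Cd14, an endotoxin co-receptor, at 5379 to 5540 CPM in NETs-treated and 687 to 698 CPM in control libraries, and Lyz2 was higher too. Most of the list was lower, 9 of 12 markers beside 27.2% of all genes tested, with a median log2 fold change of -0.46 over the list. The largest falls were those of Csf1r by 1.03, Fcgr1 by 2.34, Mertk by 2.78 and Cebpa by 1.47 on the log2 scale. The other lower markers fell by 0.30 (Ptprc) to 0.55 (Spi1). The part of these markers in the results below was not tested. Of 10 microglia markers, Sall1 was at 0 in every library, and P2ry12 lay between 0 and 0.212 CPM in NETs-treated and between 0.744 and 1.10 CPM in control libraries. Of 14 neutrophil markers, 7 (S100a9, Ngp, Ltf, Mpo, Ctsg, Ly6g and Retnlg) were at 0 in all 6 libraries, and the list summed to 10.9 to 17.0 CPM in NETs-treated and 12.6 to 15.2 CPM in control libraries. Its members moved in opposite directions, since of the 5 tested 1 was higher and 3 were lower. S100a8 was at 8.80, 12.1 and 14.1 CPM in NETs-treated and 2.47, 2.23 and 3.35 CPM in control libraries, while Csf3r was at 0, 0.0998 and 0.281 CPM in NETs-treated and 8.09, 6.03 and 4.52 CPM in control libraries. Zeros in this table need care. Where the lowest count among the other libraries of a group was 10 to 19, 350 of 6650 values were listed at 0, which is 5.26%. Counting error alone at 10 counts, with no other spread between libraries, gives 0.00454%. A gene is therefore called listed at 0 here, and no fold is given against a group that is at 0 throughout. All 37 mitochondrial genes of the table were listed at 0 in every library, and Gapdh, which cells use in abundance, lay between 16.2 and 30.7 CPM, so a low CPM in this table need not mean low expression.

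The interferon-stimulated genes were lower in the NETs-treated libraries. Of the 46 genes, 41 passed the filter on low counts, several of them, named below, only with the help of their control counts. Of these, 32 were lower and 1, the receptor gene Ifnar1, was higher at an adjusted p under 0.05 (edgeR quasi-likelihood test, Benjamini-Hochberg over 15272 genes). Among all genes tested, 27.2% were lower and 25.5% were higher, so a call in either direction was common in these libraries. A fall of at least 2-fold was called for 29 of the 41, while 11.9% of all genes tested fell that far. None of the 41 rose as much as 2-fold, against 7.39% of all genes tested. The median log2 fold change, NETs-treated over control, was -1.69 over the 41 genes, also with the gene at 0 in all NETs-treated libraries set to a bound of 3 counts, and -0.02 over all genes tested. The fitted log2 fold change was below 0 for 39 of the 41 genes and for 50.8% of all genes. In bulk RNA, fewer cells that express a gene and less RNA per cell cannot be told apart.

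Together the 46 genes held 618, 610 and 570 CPM in NETs-treated libraries, against 1050, 1056 and 1053 CPM in the control libraries. The control sum was 1.76 times the NETs-treated sum, a smaller ratio than that of most single genes. Ifitm2, Ifitm3, Ifnar1, Ifnar2 and Eif2ak2, which were not lower, are among the most abundant members. Levels were without overlap between groups, NETs-treated below, for 34 of the 41 tested genes, against 32.5% of all genes. For 1 of them, Ifnar1, the NETs-treated values lay above, against 29.9% of all genes.

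**Figure D1:**
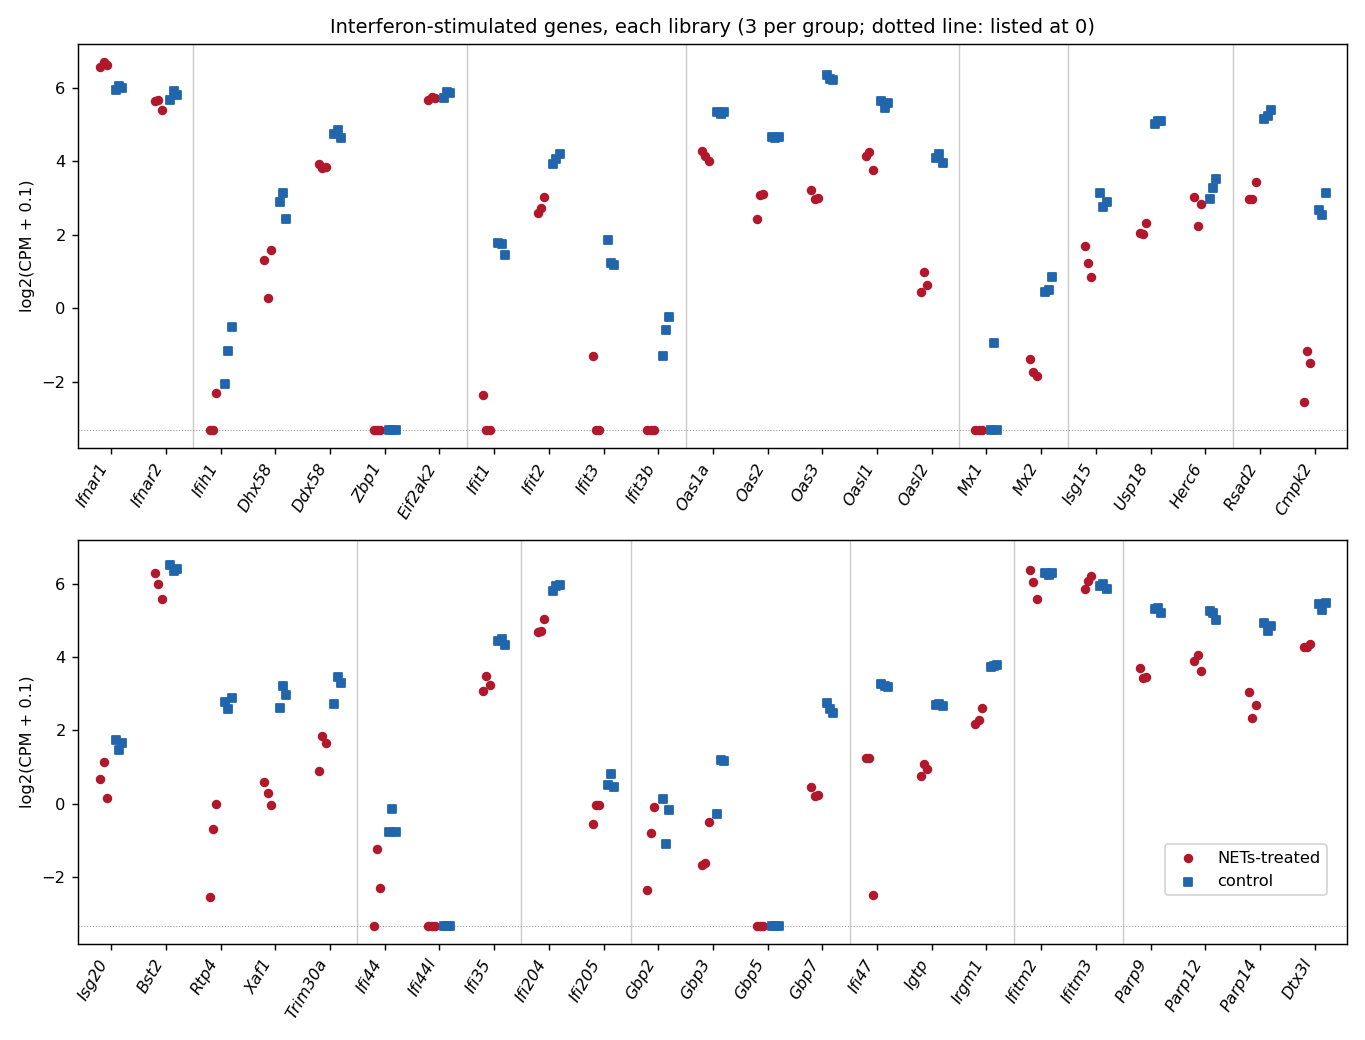
Level of each of the 46 genes as log2(CPM + 0.1) in each library, with 3 NETs-treated libraries (red circles) left of 3 control libraries (blue squares), and families parted by grey lines. The red points lie below the blue ones for 34 of the 41 tested genes, and Ifnar1 is the only tested gene with all red points above.

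Deposited counts were low for much of the list. In control libraries 24 of the 46 genes averaged under 10 CPM and 8 averaged under 1 CPM, while 22 reached 10 CPM or more. In the NETs-treated libraries 13 genes reached 10 CPM and 15 stayed under 1 CPM. At least 1 NETs-treated library was listed at 0 for 9 of the genes, and at least 1 control library for 4. The fall was not limited to the weakly expressed genes. Of the 20 genes with a mean of 10 CPM or more over all 6 libraries, 15 were lower, with a median log2 fold change of -1.17, against 30.9% of all genes at that level. Between 1 and 10 CPM, 15 of 17 were lower with a median of -2.27, against 29.3% of all genes at that level. All 17 passed the filter, but not all through both groups. Ifit1 and Ifit3, whose counts lay almost wholly in the control libraries, and Gbp3 passed only through their control counts. Cmpk2, Rtp4 and Ifi47 would not have passed on their NETs-treated counts alone, so the 15 rest in part on such genes. Below 1 CPM, 4 of 9 passed the filter and 2, Ifit3b and Mx2, were lower, against 11.9% of all tested genes at that level. Both passed only through their control counts, and a member that passed in that way had to differ.

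Per length of exon, the order in control libraries ran from Ifitm2 at 118 RPKM (CPM per kilobase of exon), Bst2 at 94.4 and Ifitm3 at 89.7 to Oas1a at 21.1, Oasl1 at 18.1 and Ifi204 at 16.8 RPKM. In NETs-treated libraries the same genes stood at 99.9 for Ifitm2, 69.9 for Bst2, 98.3 for Ifitm3, 9.35 for Oas1a, 6.43 for Oasl1 and 7.90 RPKM for Ifi204. The top 3 are membrane proteins of the antiviral defence, and they lay well apart from the rest in both groups. At the other end, Zbp1, Ifi44l and Gbp5 were listed at 0 in all 6 libraries.

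**Figure D2:**
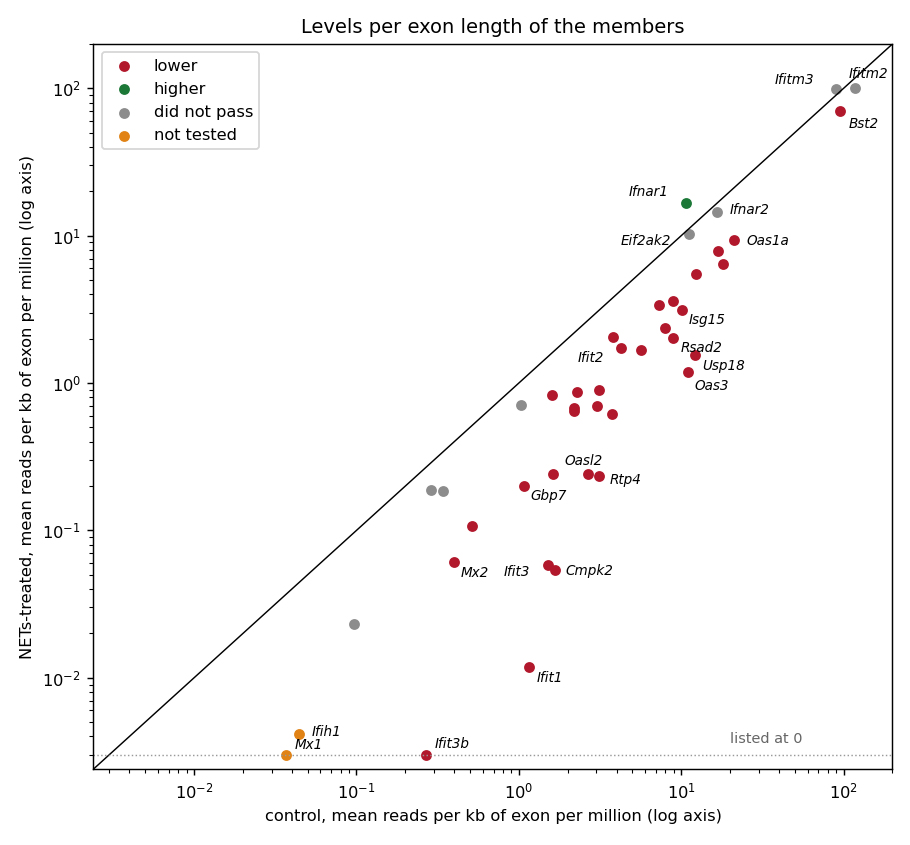
Mean level per exon length (RPKM, log axes) of each gene with any count in control libraries, NETs-treated on the vertical and control on the horizontal axis, with the line of equal levels. Genes called lower lie below the line over the whole range of control levels, Ifitm2 and Ifitm3 lie close to it near 100, and Ifnar1 lies above it.

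Many of the promoters, but not all, hold letters of the type that ISGF3 is known to bind. Windows of 300 bases, from 250 bases before to 50 after the annotated start, were found in RefSeq (GRCm38.p6) for 36 of the 46 genes. An ISRE-type match is the letters GAAA, 2 bases of any kind and GAAA again, on either strand with overlapping matches included. It stood in the windows of 21 of these 36 genes or 58.3%, and of 3.99% of all 27025 genes with a RefSeq window. A GAS-type match, the letters TTCNNNGAA, which read the same on both strands and mark sites of STAT dimers, stood in 12 of 36 or 33.3%, and in 9.55% of those 27025 genes. A kappaB-type match, the letters GGGA, 1 base of any kind and TTTCC on either strand, stood, among the 36, in the window of Gbp5 alone, and in 0.466% of those 27025 genes. The windows below are shown because they set genes with and without the ISRE letters beside genes that were lower and genes that were not. They read 5′ to 3′ on the strand of the gene, with ISRE-type matches in capitals (a match on the opposite strand appears as TTTC, 2 bases and TTTC). Ifit1 (chr19:34640639-34640938, plus strand) and Oas3 (chr5:120777610-120777909, minus strand) are genes that were lower and hold the letters.
Ifit1: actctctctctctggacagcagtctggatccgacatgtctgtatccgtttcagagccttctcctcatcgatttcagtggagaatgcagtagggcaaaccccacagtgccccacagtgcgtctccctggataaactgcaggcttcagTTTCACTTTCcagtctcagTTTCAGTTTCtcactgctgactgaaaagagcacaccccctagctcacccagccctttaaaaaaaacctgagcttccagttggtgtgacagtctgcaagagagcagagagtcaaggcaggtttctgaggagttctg
Oas3: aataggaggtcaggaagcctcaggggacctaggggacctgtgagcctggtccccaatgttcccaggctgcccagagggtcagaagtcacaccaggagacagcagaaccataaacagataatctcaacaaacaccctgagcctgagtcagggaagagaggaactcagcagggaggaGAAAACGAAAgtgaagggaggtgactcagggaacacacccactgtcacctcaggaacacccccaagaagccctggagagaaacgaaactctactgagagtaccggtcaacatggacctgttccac
Rsad2 (chr12:26456403-26456702, minus strand) and Cmpk2 (chr12:26468965-26469264, plus strand) are neighbours read away from each other. Both were lower, and only the window of Rsad2 holds the letters.
Rsad2: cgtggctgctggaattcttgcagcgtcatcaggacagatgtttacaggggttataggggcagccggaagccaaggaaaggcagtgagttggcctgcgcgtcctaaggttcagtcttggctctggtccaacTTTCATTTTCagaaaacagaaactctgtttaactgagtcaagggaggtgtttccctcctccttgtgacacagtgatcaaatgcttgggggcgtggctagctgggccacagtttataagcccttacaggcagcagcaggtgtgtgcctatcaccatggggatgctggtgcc
Cmpk2: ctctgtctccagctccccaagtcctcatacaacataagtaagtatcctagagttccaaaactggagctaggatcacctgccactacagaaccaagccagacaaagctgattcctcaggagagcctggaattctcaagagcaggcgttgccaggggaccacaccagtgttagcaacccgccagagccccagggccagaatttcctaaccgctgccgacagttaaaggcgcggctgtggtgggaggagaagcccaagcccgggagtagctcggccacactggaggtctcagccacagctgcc
Isg15 (chr4:156200769-156201068, minus strand) was lower and holds 3 overlapping matches in 1 run. Ifitm3 (chr7:141010695-141010994, minus strand) did not pass the test and holds 2 matches just past its start. Ifnar1 (chr16:91484965-91485264, plus strand) was higher and holds none.
Isg15: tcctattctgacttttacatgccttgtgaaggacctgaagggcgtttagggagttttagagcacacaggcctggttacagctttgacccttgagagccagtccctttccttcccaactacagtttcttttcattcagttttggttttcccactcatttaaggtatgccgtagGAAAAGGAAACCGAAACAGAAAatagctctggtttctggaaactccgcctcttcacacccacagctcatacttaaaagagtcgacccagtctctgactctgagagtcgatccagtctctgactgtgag
Ifitm3: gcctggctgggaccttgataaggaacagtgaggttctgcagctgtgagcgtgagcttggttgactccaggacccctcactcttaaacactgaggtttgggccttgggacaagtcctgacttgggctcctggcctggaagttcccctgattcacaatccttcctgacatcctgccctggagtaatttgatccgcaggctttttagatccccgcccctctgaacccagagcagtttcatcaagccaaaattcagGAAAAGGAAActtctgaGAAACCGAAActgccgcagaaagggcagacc
Ifnar1: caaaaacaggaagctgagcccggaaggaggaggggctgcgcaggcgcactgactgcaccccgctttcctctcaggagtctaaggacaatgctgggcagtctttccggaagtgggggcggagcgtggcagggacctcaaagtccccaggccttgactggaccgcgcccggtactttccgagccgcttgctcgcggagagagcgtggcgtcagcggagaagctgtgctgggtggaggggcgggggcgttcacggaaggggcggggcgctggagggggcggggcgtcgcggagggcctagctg

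An ISRE-type match stood in the windows of 14 of 24 lower genes (58.3%) and of 5 of 8 genes that did not pass the test (62.5%). Over all tested genes with a window, 37.0% of 384 genes with the ISRE letters were lower, against 30.4% of 9776 genes without them. With the 46 genes and the other interferon lists left out, the shares were 32.4% of 343 and 30.2% of 9706. Windows around a single start site do not cover distant or alternative promoters, and a match is a run of letters, not a bound site.

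**Figure D3:**
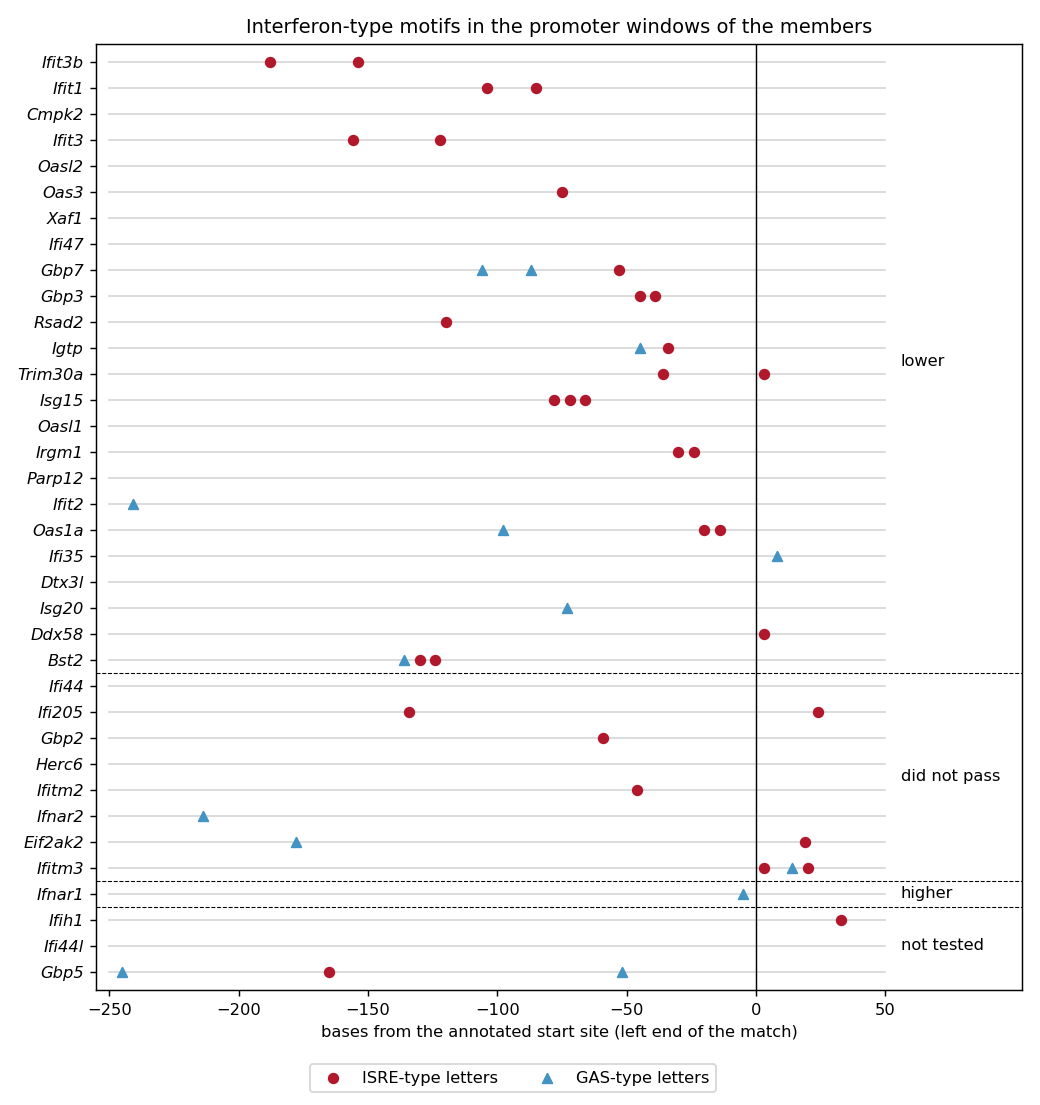
Positions of ISRE-type (red circles) and GAS-type (blue triangles) matches in the promoter windows of the 36 genes with an entry, in bases from the annotated start, grouped by the result of the test and ordered by fold change within each group; matches from more than 1 start site share a row. Matches of the ISRE type stand in 14 of 24 rows of lower genes and in 5 of 8 rows of genes that did not pass.

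Of the receptor subunits, 1 was higher and 1 did not pass the test. Ifnar1 (chr16:91485238-91507441), the subunit that binds TYK2, was at 94.9, 104 and 98.7 CPM in NETs-treated libraries, against 61.7, 66.0 and 63.6 CPM in control libraries. All NETs-treated values lay above all control values, and the log2 fold change was 0.64 ± 0.07 (SE), with an edgeR adjusted p of 0.000122. Ifnar1 was the only one of the 46 genes that rose. Ifnar2, the subunit that binds JAK1, was at 50.2, 51.35 and 42.3 CPM in NETs-treated libraries, against 50.7, 59.9 and 55.8 CPM in control libraries. The groups overlapped, and the difference of -0.21 ± 0.10 had an edgeR adjusted p of 0.113.

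The cytosolic sensors were lower in part. Dhx58 encodes LGP2, which tunes the RNA sensors RIG-I and MDA5. It was at 2.375, 1.12 and 2.89 CPM in NETs-treated libraries, against 7.30, 8.72 and 5.31 CPM in control libraries, a log2 fold change of -1.74 ± 0.35 (edgeR adjusted p 0.00328). Ddx58, which encodes RIG-I, a sensor of RNA with a triphosphate end, fell to 14.1 to 15.2 CPM in NETs-treated libraries, against 24.8 to 28.7 CPM in control libraries, a log2 fold change of -0.88 ± 0.10. Ifih1, which encodes MDA5, a sensor of long double-stranded RNA, had 0, 0 and 4 counts in NETs-treated libraries and 6, 15 and 27 counts in control libraries. It lay too low for the filter and was not tested. Eif2ak2 encodes PKR, a kinase that stops translation when it binds double-stranded RNA. It was at 50.5, 54.0 and 52.7 CPM in NETs-treated libraries, against 53.4, 59.5 and 58.5 CPM in control libraries, so the groups overlapped, and the difference of -0.12 ± 0.08 had an edgeR adjusted p of 0.200. Zbp1, a sensor of Z-form nucleic acids that can start cell death, was listed at 0 throughout.

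All 4 IFIT genes were lower. IFIT proteins bind viral RNA and hinder its translation, and the mouse genes lie side by side on chromosome 19. Ifit2 (chr19:34550694-34576419), the most abundant, was at 5.93, 6.51 and 8.10 CPM in NETs-treated libraries, against 15.05, 16.6 and 18.4 CPM in control libraries. Its log2 fold change was -1.28 ± 0.16 (edgeR adjusted p 0.000209), and every NETs-treated value lay below every control value. Ifit1, whose promoter with 2 ISRE-type matches is printed above, had 4, 0 and 0 counts in NETs-treated libraries, against 144, 140 and 119 in control libraries. Ifit3 had 13, 0 and 0 counts in NETs-treated libraries, against 152, 97 and 99 in control libraries. Both were called lower, but the size of the change rests on NETs-treated replicate 1, the only NETs-treated library with counts. The fitted log2 fold changes were -6.43 for Ifit1 and -4.62 for Ifit3 with that library. Without it both genes were still called lower, but with all NETs-treated libraries at 0 no fold is given. Ifit3b was listed at 0 in all NETs-treated libraries and had 13, 24 and 34 counts in control libraries, and it was called lower with an edgeR adjusted p of 0.00246. Like Ifit1 and Ifit3, it passed the filter only through its control counts, and Ifit3b could not have been called higher. Of the 50-base words in the transcripts of Ifit3, 51.2% also occur in other genes, mainly Ifit3b, so reads may be shared between this pair.

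All 5 OAS family genes were lower. OAS enzymes make short chains of adenylate on sensing double-stranded RNA, and these switch on the ribonuclease RNase L. Oas3 (chr5:120753098-120777661), which carried the highest count of the family in control cells, was at 9.27, 7.83 and 7.99 CPM in NETs-treated libraries, against 81.3, 76.1 and 75.0 CPM in control libraries. Its log2 fold change of -3.21 ± 0.10 had an edgeR adjusted p of 1.76e-07, a difference far beyond the spread within either group. Oasl2 (chr5:114896936-114912234), an OAS-like gene, was at 1.27, 1.87 and 1.46 CPM in NETs-treated libraries, against 17.1, 18.4 and 15.3 CPM in control libraries, a log2 fold change of -3.47 ± 0.19 (edgeR adjusted p 2.57e-06). Oas1a, Oasl1 and Oas2 fell less, by 1.18 to 1.75 on the log2 scale. Oasl1 is known in the mouse to hold back translation of Irf7. Summed over the family, the level was 52.8, 54.8 and 47.6 CPM in NETs-treated libraries, against 214, 202 and 204 CPM in control libraries. Of the words in Oas1a, 57.6% also occur in other genes, mainly Oas1g, which was at 10.2, 9.68 and 8.20 CPM in NETs-treated libraries and at 20.2, 19.6 and 17.3 CPM in control libraries.

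The Mx genes were close to the limit of what these libraries show. Mx proteins are dynamin-like GTPases that block incoming viruses, and both mouse genes are defective in many inbred strains. Mx2, annotated in GENCODE M21 as a polymorphic pseudogene, had 12, 8 and 7 counts in NETs-treated libraries and 54, 57 and 78 counts in control libraries, a log2 fold change of -2.68 ± 0.43 (edgeR adjusted p 0.000954). Mx2 too passed the filter only through its control counts. Mx1 was listed at 0 in every library except control replicate 2, which had 18 counts, and was not tested.

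The ISG15 system was lower at the modifier and at the protease that removes it. Isg15, the ubiquitin-like modifier, was at 3.15, 2.24 and 1.71 CPM in NETs-treated libraries, against 8.79, 6.71 and 7.31 CPM in control libraries, a log2 fold change of -1.68 ± 0.26. Usp18, which strips ISG15 from its targets and also damps signalling at IFNAR2, was at 4.02, 3.94 and 4.93 CPM in NETs-treated libraries, against 32.7, 34.6 and 34.0 CPM in control libraries. The log2 fold change of Usp18 was -2.97 ± 0.13 (edgeR adjusted p 7.26e-07), and the groups lay wide apart. Herc6, the ligase that attaches ISG15 in the mouse, was at 8.07, 4.66 and 7.10 CPM in NETs-treated libraries and at 7.77, 9.65 and 11.3 CPM in control libraries. The groups overlapped, and the difference of -0.53 ± 0.23 had an edgeR adjusted p of 0.0853, between 0.0418, reached without NETs-treated replicate 1, and 0.264 over the alternatives.

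All 7 of the other antiviral effectors were lower. Cmpk2, a nucleotide kinase of the mitochondrion, was at 0.0706, 0.349 and 0.255 CPM in NETs-treated libraries, against 6.30, 5.75 and 8.70 CPM in control libraries, a log2 fold change of -4.94 ± 0.46 (edgeR adjusted p 4.42e-05). Its neighbour Rsad2 encodes viperin, which turns CTP into a terminator of viral RNA synthesis. Rsad2 was at 7.78, 7.83 and 10.8 CPM in NETs-treated libraries, against 35.7, 37.6 and 42.5 CPM in control libraries, a log2 fold change of -2.14 ± 0.15. Both neighbours were lower in every NETs-treated library than in any control library. Rtp4 was at 0.0706, 0.524 and 0.894 CPM in NETs-treated libraries and at 6.72, 5.89 and 7.23 CPM in control libraries, a log2 fold change of -3.74 ± 0.60, or -4.48 without NETs-treated replicate 3. Neither Cmpk2 nor Rtp4 would have passed the filter on its NETs-treated counts alone. Xaf1, an antagonist of the apoptosis inhibitor XIAP, fell by 2.74, and Trim30a, a TRIM protein that restrains NF-kappaB in the mouse, fell by 1.69 on the log2 scale. Isg20, an RNA exonuclease, fell by 0.95 with an edgeR adjusted p of 0.0330. Bst2 encodes tetherin, which holds budding virus particles at the cell surface, and it changed least. Its level was 78.1, 63.5 and 47.7 CPM in NETs-treated libraries, against 91.1, 80.8 and 83.8 CPM in control libraries, a log2 fold change of -0.43 ± 0.16 (edgeR adjusted p 0.0465). The groups of Bst2 did not overlap, but the call was lost in 8 of 16 alternative settings, with an adjusted p up to 0.137 on leaving out control replicate 1. That of Isg20 was lost in 6 of 16, up to 0.0933 without the same library. Leaving out any control library ended both calls, as did leaving out NETs-treated replicate 2 or 3 for Bst2 and 1 or 3 for Isg20.

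Of the interferon-induced proteins IFI35 and IFI44 and the IFI200 family, some were lower and some did not pass. Ifi35 was at 8.33, 10.999 and 9.30 CPM in NETs-treated libraries, against 21.7, 22.4 and 20.05 CPM in control libraries, a log2 fold change of -1.16 ± 0.13 (edgeR adjusted p 0.000141). Ifi204, which belongs to the PYHIN family of DNA-binding proteins and senses DNA in the mouse, was at 25.4, 25.99 and 33.0 CPM in NETs-treated libraries, against 55.9, 61.6 and 62.5 CPM in control libraries. Its log2 fold change was -1.09 ± 0.11 (edgeR adjusted p 8.58e-05), and 20.02% of its 50-base words occur in other genes, mainly Mndal. Ifi205 of the same family, at 0.588 to 0.873 CPM in NETs-treated and 1.28 to 1.65 CPM in control libraries, had a difference of -0.87 ± 0.35 that did not pass (edgeR adjusted p 0.0681). Ifi44 had 0, 13 and 4 counts in NETs-treated libraries and 21, 35 and 22 counts in control libraries, and its difference of -2.05 ± 0.94 did not pass (edgeR adjusted p 0.0996). It passed at -3.49 without NETs-treated replicate 2 (adjusted p 0.0305) and at -2.97 with limma-voom, and its adjusted p reached 0.238 among the alternatives.

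The GTPases that attack the vacuoles of intracellular microbes were lower in part. Of the guanylate-binding proteins, Gbp7 (chr3:142530342-142550149) was at 1.27, 1.05 and 1.07 CPM in NETs-treated libraries, against 6.60, 5.92 and 5.49 CPM in control libraries, a log2 fold change of -2.41 ± 0.22 (edgeR adjusted p 4.05e-05). Gbp3 was at 0.212, 0.2245 and 0.613 CPM in NETs-treated libraries and at 0.721, 2.20 and 2.14 CPM in control libraries, a log2 fold change of -2.27 ± 0.61 (edgeR adjusted p 0.0132), or -2.93 without NETs-treated replicate 3. The call for Gbp3 was lost without control replicate 2 (adjusted p 0.0504) and without control replicate 3 (adjusted p 0.0502), and its lowest value over the alternatives was 0.00139. Gbp3 passed the filter only through its control counts. Gbp2 had 4, 19 and 33 counts in NETs-treated libraries and 43, 16 and 36 counts in control libraries, which overlap, and it did not pass the test. All 3 immunity-related GTPases were lower. Irgm1, the most abundant, was at 4.42, 4.76 and 5.98 CPM in NETs-treated libraries, against 13.1, 13.3 and 13.6 CPM in control libraries, a log2 fold change of -1.40 ± 0.16 (edgeR adjusted p 0.000123). Igtp (Irgm3) fell by 1.81 on the log2 scale. Ifi47 (Irg47) was at 2.26, 2.27 and 0.0766 CPM in NETs-treated libraries, against 9.58, 9.14 and 9.03 CPM in control libraries. NETs-treated replicate 3 stood far below the other NETs-treated libraries there, and the log2 fold change was -2.58 ± 0.73 with it (edgeR adjusted p 0.0160), -2.03 without it and -3.53 with limma-voom. Ifi47 would not have passed the filter on its NETs-treated counts alone.

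Neither IFITM gene passed the test. IFITM proteins sit in endosomal membranes and keep enveloped viruses from fusing. Ifitm2 was at 82.5, 66.4 and 47.4 CPM in NETs-treated libraries, against 78.7, 75.0 and 78.8 CPM in control libraries. The NETs-treated values spread on both sides of the control values, and the difference of -0.24 ± 0.17 had an edgeR adjusted p of 0.264. Ifitm3, whose promoter with 2 ISRE-type matches is printed above, was at 58.1, 67.4 and 74.4 CPM in NETs-treated libraries, against 61.6, 63.0 and 57.9 CPM in control libraries, a difference of 0.13 ± 0.10 (edgeR adjusted p 0.298). Without NETs-treated replicate 1 both passed, Ifitm2 at -0.43 (adjusted p 0.0188) and Ifitm3 at 0.24 (adjusted p 0.0350), while over the alternatives their adjusted p reached 0.667 and 0.674. Summed over the pair, the level was 141, 134 and 122 CPM in NETs-treated libraries, against 140, 138 and 137 CPM in control libraries. Of the words in Ifitm2, 48.5% also occur in other genes, mainly the readthrough gene model Gm45717, which stood at 0.574 to 1.15 CPM in NETs-treated and 0 to 1.28 CPM in control libraries.

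The PARP genes and Dtx3l, enzymes of ADP-ribosylation and ubiquitination in the interferon response, were all lower. Parp9 and Dtx3l form a complex in the cell and lie head to head on chromosome 16. Dtx3l was at 19.05, 19.2 and 20.3 CPM in NETs-treated libraries, against 43.4, 38.5 and 44.3 CPM in control libraries, a log2 fold change of -1.11 ± 0.09 (edgeR adjusted p 2.16e-05). Parp9 was at 12.9, 10.7 and 10.9 CPM in NETs-treated libraries, against 39.2, 39.9 and 36.3 CPM in control libraries, a log2 fold change of -1.74 ± 0.11. Their exons overlap by 458 bases on opposite strands, and the sources used here do not give the strand setting of the counting. Parp14, a mono-ADP-ribosyltransferase, was at 8.09, 4.94 and 6.36 CPM in NETs-treated libraries, against 30.4, 26.1 and 28.6 CPM in control libraries, a log2 fold change of -2.13 ± 0.18 (edgeR adjusted p 2.53e-05). Parp12 fell by 1.29 on the log2 scale. Summed over the 4 genes, the level was 54.8, 51.3 and 49.9 CPM in NETs-treated libraries, against 151, 141 and 141 CPM in control libraries.

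**Figure D4:**
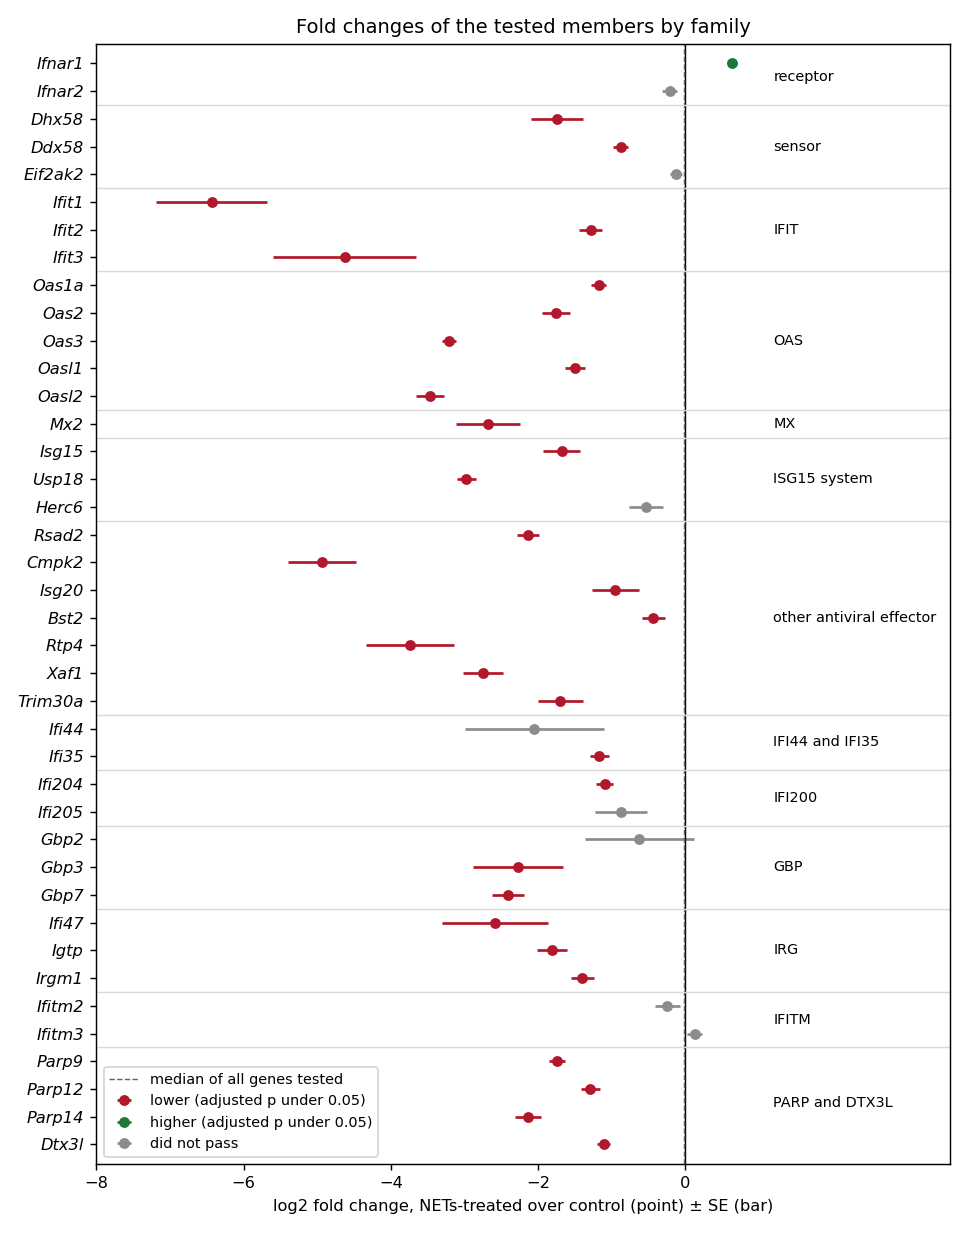
Log2 fold change, NETs-treated over control, with its SE (bars) for the tested genes other than Ifit3b, which is listed at 0 in all NETs-treated libraries, grouped by family. Red points were lower, the green point (Ifnar1, 0.64) was higher and grey points did not pass, and the dashed line is the median of all genes tested, -0.02.

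Of 46 genes that make and carry the interferon signal, 34 were tested, 17 were lower, 10 were higher and 7 did not pass, with a median log2 fold change of -0.28. Among all genes tested, 27.2% were lower and 25.5% higher, so the number that were higher was close to the background. None of the 11 interferon ligand genes passed the filter, and 9 of them, Ifnb1 among them, were listed at 0 in all 6 libraries. Ifnk had 5, 0 and 0 counts in NETs-treated and 0, 0 and 5 counts in control libraries, and Ifnz had 0, 11 and 0 counts in NETs-treated and none in control libraries. Irf9, the DNA-binding subunit of ISGF3, was at 9.53, 9.43 and 12.03 CPM in NETs-treated libraries, against 28.4, 29.6 and 30.2 CPM in control libraries, a log2 fold change of -1.51 ± 0.12. Stat2 fell by 0.65 on the log2 scale.

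Among the other factors and kinases, Irf7, which drives interferon genes, fell by 1.23, and Irf8, a factor of myeloid identity, fell by 1.33 on the log2 scale. Jak1 was at 220, 228 and 221 CPM in NETs-treated libraries, against 214, 223 and 223 CPM in control libraries. Its groups overlapped, and the difference of 0.02 ± 0.06 turned to -0.06 when libraries were scaled by size only and to below 0 without control replicate 1, without passing the test in any of these. Stat3, which carries signals of the interleukin 6 and interleukin 10 families, rose to 215, 219 and 211 CPM in NETs-treated libraries, against 109, 107 and 104 CPM in control libraries, a log2 fold change of 1.01 ± 0.06 (edgeR adjusted p 4.04e-06). Jak2 rose by 0.81 on the log2 scale.

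Genes upstream of interferon production were mixed. Tlr3, an endosomal sensor of double-stranded RNA, was at 2.56, 3.42 and 2.96 CPM in NETs-treated libraries, against 6.23, 9.42 and 9.39 CPM in control libraries, a log2 fold change of -1.49 ± 0.23. Tlr7, a sensor of single-stranded RNA, was at 78.5, 79.5 and 94.4 CPM in NETs-treated libraries, against 199, 231 and 226 CPM in control libraries, a log2 fold change of -1.38 ± 0.10. Tlr9, Cgas and Sting1, which detect or report DNA, fell by 0.74, 0.46 and 0.69 on the log2 scale. The kinases that activate IRF3 went opposite ways. Tbk1 was at 105, 116 and 117 CPM in NETs-treated libraries, against 58.0, 52.5 and 56.8 CPM in control libraries, a log2 fold change of 1.01 ± 0.08, while that of Ikbke was -1.41 ± 0.08. Inhibitors of cytokine signalling went both ways too. Socs3, an inhibitor of JAK kinases that STAT3 induces, was at 40.5, 34.6 and 34.8 CPM in NETs-treated libraries, against 12.2, 10.2 and 11.1 CPM in control libraries, a log2 fold change of 1.71 ± 0.11 (edgeR adjusted p 7.17e-06). Ptpn6, the phosphatase SHP-1, was at 47.6, 40.9 and 25.7 CPM in NETs-treated libraries, against 134, 127 and 126 CPM in control libraries, a log2 fold change of -1.76 ± 0.19.

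**Figure D5:**
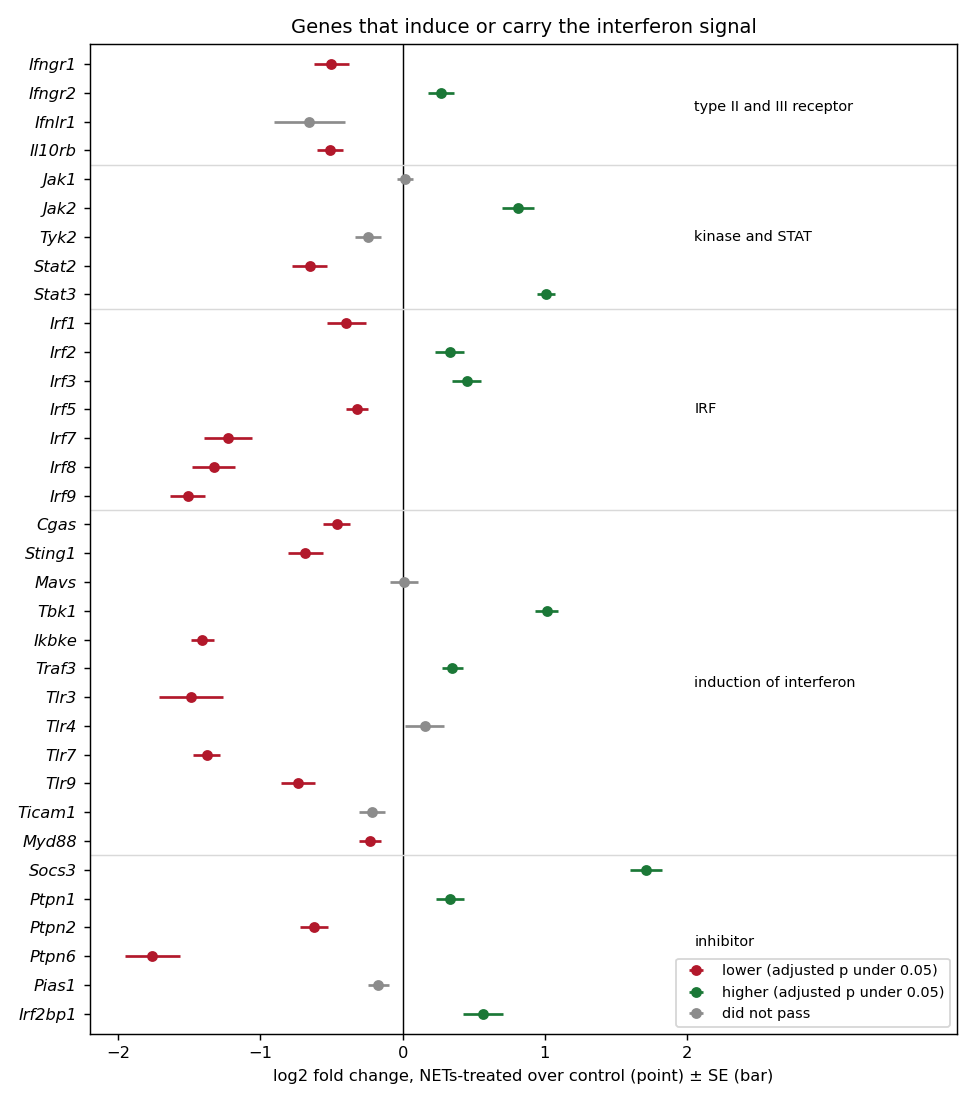
Log2 fold change, NETs-treated over control, with its SE (bars) for 34 tested genes that induce or carry the interferon signal, grouped by role. Red points (17) were lower, green points (10) were higher and grey points (7) did not pass, with Socs3 at 1.71 and Ptpn6 at -1.76 as the ends of the range.

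A further list of interferon-stimulated genes outside the 46 held more genes that were lower than genes that were higher. Of its 80 genes in the table, 59 were tested, 39 were lower, 6 were higher and 14 did not pass, beside 27.2% lower and 25.5% higher among all genes tested, with a median log2 fold change of -0.91, also with Ddx60 at its bound of 3 counts. Ddx60, a helicase linked to RIG-I signalling, was listed at 0 in all NETs-treated libraries and was at 2.26, 3.11 and 2.51 CPM in control libraries. Gbp8, a further guanylate-binding protein, was at 0.212, 0.923 and 0.536 CPM in NETs-treated libraries, against 6.63, 6.73 and 4.63 CPM in control libraries, a log2 fold change of -3.43 ± 0.46. Gbp9 and Phf11d fell by 2.77 and 2.70 on the log2 scale. Rnf213, a large ubiquitin ligase, was at 187, 185 and 190 CPM in NETs-treated libraries, against 309, 310 and 315 CPM in control libraries, a log2 fold change of -0.73 ± 0.06. Ifi30, a lysosomal thiol reductase, fell by 0.39 with an edgeR adjusted p of 0.0238. That call was lost with no filter on low counts (edgeR adjusted p 0.0514) and without NETs-treated replicate 2. Leaving out any 1 of the control libraries ended it too (up to 0.0703).

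The genes of that list that rose were Trim25, Slfn2, Parp10, Slfn9, Daxx and Tor3a. Trim25, a ubiquitin ligase known to act on RIG-I, was at 421, 449 and 454 CPM in NETs-treated libraries, against 240, 220 and 220 CPM in control libraries, a log2 fold change of 0.96 ± 0.07 (edgeR adjusted p 8.26e-06). Slfn2, a schlafen protein, was at 178, 157 and 132 CPM in NETs-treated libraries, against 110, 108 and 104 CPM in control libraries, a log2 fold change of 0.54 ± 0.11. Parp10 and Slfn9 rose by 0.44 and 0.41 on the log2 scale, and the call of Slfn9 was lost without control replicate 2 (adjusted p 0.0632).

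Some markers of other cell types moved beside these genes. Of 7 plasmacytoid dendritic cell markers, Ly6d and Klk1 were at 0 in all libraries, and the list, which contains Bst2, summed to 110 to 134 CPM in NETs-treated and 146 to 153 CPM in control libraries. Of 4 B cell markers, Ms4a1 and Pax5 were at 0 in all libraries, and the list summed to 0.848 to 0.941 CPM in NETs-treated and 11.04 to 12.8 CPM in control libraries, the control sum all from Ighm. Cd79a had 12, 7 and 5 counts in NETs-treated and none in control libraries. T and NK cell markers were at 0 in all libraries for 6 of 8, and fibroblast markers for 4 of 6, and none of these lists passed the filter on low counts. The summed microglia markers were at 288 to 315 CPM in NETs-treated and 723 to 750 CPM in control libraries, and their part in the fall of the interferon-stimulated genes was not tested. Of the reference genes, Actb was higher by 0.67 on the log2 scale and Hprt fell by 0.37, a call lost without NETs-treated replicate 2 and without control replicate 2 or 3. Gapdh, at 22.3, 19.8 and 16.2 CPM in NETs-treated and 17.0, 30.7 and 17.4 CPM in control libraries, did not pass the test, and neither did Tbp. Ppia did not pass either, with a difference of -0.47 that passed without NETs-treated replicate 1 or 3 and in the Wald test of DESeq2.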

How the data were processed

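Strand-specific RNA-seq libraries of total RNA were made by the authors, per the labels' protocols, and the submitters' processing notes name HISAT2, DESeq2, mm10 and rn6 with no version or role. The authors deposited raw read counts per gene, and a normalised signal. Tested on its values, this signal was the count over a factor fixed for the library. The authors' deposited table also gives the log2 fold change and its p-value per gene, raw and adjusted, used as an alternative. No source used here names the program, strand setting or annotation used for counting. Every column of per-sample values was mapped to a sample.

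The 46 genes, families and gene lists were chosen with earlier results of these data known. Raw counts were tested with edgeR 4.0.16 (quasi-likelihood, two-sided, TMM, no covariates) in R 4.3.3, after the filter of edgeR (minimum count 10, total 15), with Benjamini-Hochberg adjustment over all tested genes and a threshold of 0.05. The procedure was tested on simulated data. Values by library were given, per family, for the most abundant and the most changed gene, all that rose and untested genes with counts, and for other members chosen after their values were seen, as were genes named without library values. Genes of the other lists were named for the size of their change (4), their abundance (3) or a direction opposite to that of most of the list (at most 4). Lengths, overlaps and shared 50-base words came from GENCODE M21 (GRCm38), which held 55141 of 55401 gene IDs, and promoters from RefSeq. Alternatives were other scalings, DESeq2 1.42.0, limma-voom 3.58.1, other filters, a replicate block and leaving out each library. A pair of genes from the other lists is not reported here.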

Additional observations from a re-analysis of the deposited data

How the results depend on the processing

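Across 16 alternative settings the number of the 46 genes called lower lay between 29 and 33, and it was 32 by the authors' deposited table and 29 to 33 when 1 library was left out. Of the 32 genes called lower, 29 kept that call in every alternative that tested them, the exceptions being Bst2, Isg20 and Gbp3, and none of the 41 tested genes changed sign. Without the genes that share over 20% of their 50-base words with another gene, 28 were lower. This choice and a filter on a mean of 1 CPM were made after seeing the data.
The genes called higher numbered 1 to 2 when 1 library was left out. Scaling by library size alone gave a median log2 fold change of -1.77, and it was -1.72 to -1.52 when 1 library was left out. Counts in small families moved by 1. With scaling by library size only, 1 receptor gene was lower. With limma-voom, 2 of the IFI44 and IFI35 genes were lower, and 1 to 2 with 1 library left out. With a filter of 1 CPM in at least 3 samples, 2 IFI200 genes and 1 GBP gene were lower. With a mean of at least 1 CPM, 2 IFI200 genes and 0 MX genes were lower, since Mx2 was then not tested. GBP genes called lower numbered 1 to 2 and IFITM genes 0 to 1 with 1 library left out. The cause of these shifts was otherwise not tested. Jak1 turned to -0.0578 with library size only and lay between -0.0014 (without control replicate 1) and 0.0439 with 1 library left out, and Gapdh lay between -0.3066 and 0.176 (without control replicate 2), none of them past the threshold.
Replicate numbers were shared between groups, but same-numbered libraries correlated at 0.206, 0.028 and 0.0759 in their deviations from the group means, so the numbers were not taken as pairs. With the replicate block, 32 of the 46 genes were lower and 1 was higher, and 4209 genes in all were lower. Of NETs-treated libraries 2 and 3, each correlated best with another number. Low counts limit what can be said of Ifih1, Mx1, Zbp1, Ifi44l and Gbp5, which were not tested.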
